A study of Mus musculus with 6 samples.

Results

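Cytosolic ribosomal protein genes were taken as all gene symbols made of Rpl or Rps and a number, with or without the endings a, x, l or al, together with Rplp0, Rplp1, Rplp2 and Rpsa. Of the 44792 gene symbols in the table, 82 met this rule, 50 of the large and 32 of the small ribosomal subunit, and 77 of the 82 had enough counts to be tested among 14370 genes. RNA was sequenced from hearts of untreated C57BL/6 mice aged 3 months. The R193H group held 3 hearts of mice carrying R193H, an amino acid change in cTnI (cardiac troponin I, the part of troponin that holds contraction back between beats), and the wild type (WT) group held 3 hearts without it. The labels do not say how the change was introduced. Hearts of a group are biological repeats per the design text, so p-values measure the spread between these hearts.

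The cytosolic ribosome translates nuclear messenger RNA into protein, and each of its 2 subunits joins ribosomal RNA to a fixed set of small, mostly basic proteins, nearly all present in a single copy. The genes for these proteins are scattered over the genome, yet their messenger RNAs are among the most evenly and highly expressed of a cell. Many begin with a run of pyrimidines (C or T), the terminal oligopyrimidine or TOP motif, through which the kinase mTOR and the RNA-binding protein Larp1 set their translation and stability. Muscle also makes paralogs that replace a general protein, among them Rpl3l, which takes the place of Rpl3 in heart and skeletal muscle. Mammalian ribosomal protein messenger RNAs were often copied back into the genome, which left many processed pseudogenes with nearly the same sequence.

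The start sites of 7 of these genes are shown because their pyrimidine runs are the feature the family is known for. Each line gives 30 bases of the RefSeq annotation of GRCm38.p6 around the annotated start of transcription on the gene's own strand, with the longest run of C and T near the start in capitals.
Rpl15, chr14:18270968-18270997, minus strand: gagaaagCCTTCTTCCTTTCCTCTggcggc
Rpl34, chr3:130730330-130730359, minus strand: acccgCCCCTTCCTTTTCCTCTTCCgggga
Rpl18, chr7:45718062-45718091, plus strand: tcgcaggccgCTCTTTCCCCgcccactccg
Rpl12, chr2:32961701-32961730, plus strand: gagcaggatccgTCTTTTCggctttcggct
Rplp0, chr5:115559466-115559495, plus strand: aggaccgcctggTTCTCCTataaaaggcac
Rpl10, chrX:74270786-74270815, plus strand: ggctgtaaCTCTatggttgttacagtggaa
Rpl3l, chr17:24727822-24727851, plus strand: ctctgtcatttgaCCTCTggtgcctggtgg
The run was 20 bases in Rpl34, 17 in Rpl15, 10 in Rpl18, 7 in Rpl12 and Rplp0, 5 in Rpl3l and 4 in Rpl10. A further annotated start had a run of 8 bases in Rpl34 and of 4 in Rpl3l. Here and in the shares below, a gene with several annotated starts was taken at its longest run. A run of at least 8 bases of C or T, lying from 30 bases before to 30 bases after an annotated start, was present at 34 of the 61 members in the promoter table, or 55.7%. The same run was present at 25.8% of all 27025 genes of that table. On the opposite strand the shares were 13.1% of the members and 28.7% of all genes. A run near an annotated start describes these letters and was not matched to the first transcribed base in these hearts.

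The pair shown next is a member, Rpl34, and its pseudogene copy Rpl34-ps1, which held more counts than Rpl34 in every heart but R193H heart 3. The windows come from the GENCODE M21 transcripts on GRCm38, and capitals mark the base that differs.
Rpl34 (chromosome 3): gaaagcacctaaatcTgcatgtggcgtgtg
Rpl34-ps1 (chromosome 6): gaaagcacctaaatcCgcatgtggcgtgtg
Counting from 1 at the first base of the copy's annotated transcript, the substitution in this window is T132C, and 2 substitutions, T132C and C318G, separate Rpl34 from Rpl34-ps1 over 354 aligned bases. Shared sequence was common in the family. Of the 81 members with a GENCODE transcript, 47 had at least 50% of their windows of 50 bases in any other annotated genes. Both strands were searched, and genes that overlap a member in the genome were not left out. The median share was 54.5%, and the highest was 98.6% in Rps27, a small-subunit protein. Several genes can add to a share, as in Rpl30, at 76.4%, where no single gene shared more than 47.8%. The genes need not be pseudogene copies. In Rpl35, at 95.1%, Wdr38 shared 59.0%, and the copy sharing most, Gm10269, shared 19.5%. Rpl3l and Rpl39l were among the 3 members that shared no window of 50 bases. How reads that fit several places were counted is not known from the sources, so the count of any member with a near-identical copy is uncertain.

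Most ribosomal protein genes had slightly higher means in R193H hearts, and no single gene passed the test. Of the 77 tested members, 70 had a higher and 7 a lower mean in R193H hearts, where 49.9% of all genes tested had a higher mean. The median log2 fold change (R193H over WT) was 0.11 over the members, with quartiles of 0.05 and 0.16, and -0.00036 over all genes. It was 0.068, with 62 members higher, after a loess correction of all fold changes for transcript length and GC content, and 0.23 where libraries were scaled by their totals, a scaling that moved the median of all genes to 0.13. With edgeR's quasi-likelihood test and Benjamini-Hochberg adjustment over all genes, 0 members were called, against 1 gene of 14370, which is 0.00696%. The lowest adjusted p among the members was 0.722, for Rpl12. At an unadjusted p under 0.05, 5 members had a higher mean, among them Rpl12, Rpl15, Rpl18 and Rpl10, and 0 a lower mean, beside 3.22% and 2.51% of all genes. DESeq2 called 0 members, against 0.292% of all genes. Without R193H heart 2, whose mitochondrial share was lowest, 68 members had a higher mean, and without any other single heart 64 to 70 had. The 5 members at an unadjusted p under 0.05 became 2 without R193H heart 1, 1 without WT heart 1 and 38 with scaling by library totals.

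Every CPM (count scaled to the normalised library total) of the R193H hearts lay above every CPM of the WT hearts in 29 of the 77 members, where this held for 6.02% of all genes. The opposite order held for 0 members and for 5.8% of all genes. The members were read in the same hearts and libraries, so counts of members, here and elsewhere, are not counts of separate observations. The differences were small. The absolute log2 fold change was under 0.2 in 66 members, and the standard error of a member's log2 fold change had a median of 0.0893. Large-subunit genes had a median log2 fold change of 0.10, with 43 of 47 higher and 16 not overlapping, and small-subunit genes had a median of 0.12, with 27 of 30 higher and 13 not overlapping. Among the 61 members with a mean of at least 10 CPM, 56 had a higher mean and 27 did not overlap. Of the 7940 genes of all kinds at that level, 3480 had a higher mean and 396 lay wholly above WT, with a median log2 fold change of -0.02.

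**Figure D1:**
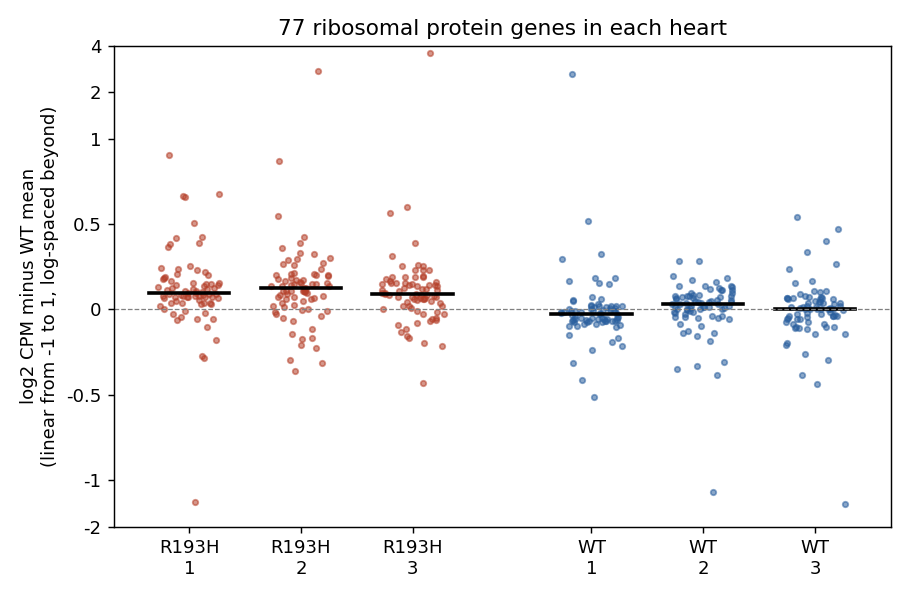
Level of each of the 77 tested ribosomal protein genes (points) in each R193H heart (red) and each WT heart (blue), as log2 CPM minus that gene's WT mean, on an axis that is linear from -1 to 1 and log-spaced beyond, with black bars at the medians. The medians of the 3 R193H hearts were 0.10, 0.12 and 0.09, above those of the 3 WT hearts at -0.03, 0.03 and 0.0046.

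The members lay higher in each R193H heart. Relative to each gene's WT mean, the median member stood at 0.10, 0.12 and 0.09 in R193H hearts 1, 2 and 3, against -0.03, 0.03 and 0.0046 in WT hearts 1, 2 and 3, on the log2 CPM scale. Of the 77 members, 64, 61 and 60 lay above their WT mean in the R193H hearts, against 26, 52 and 43 in the WT hearts. The plot of levels by heart shows both sets of medians, and the groups did not overlap. Taken as a sum, the members held 0.731%, 0.782% and 0.707% of all counts in the R193H hearts, against 0.626%, 0.634% and 0.638% in the WT hearts. This share rests on library totals, and with that scaling the median log2 fold change of all genes was also above 0, at 0.13. Without the mitochondrially encoded genes in the total, the share was 1.118% ± 0.0205 in R193H hearts and 1.0005% ± 0.0107 in WT hearts (SD, n = 3 each).

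Library and tissue measures had different group means as well. Of the totals, shares and marker sums given here, the mitochondrial share and the ventricular muscle sum did not overlap between groups. The others overlapped. Totals were 19582600 to 21852210 counts in R193H hearts, against 14736067 to 20652534 in WT hearts, and mitochondrially encoded genes took 35.2%, 30.9% and 35.4% in R193H hearts 1 to 3, against 36.7% to 36.8% in WT hearts. The 11 listed macrophage markers with a row all had higher means in R193H hearts, 6 of them at an unadjusted p under 0.05, and none was called by edgeR. Their summed level was 636.5, 717.1 and 501.8 CPM in R193H hearts, against 432.4, 431.4 and 504.2 CPM in WT hearts, so R193H heart 3 lay within the WT range. Of the 12 ventricular muscle markers, 10 had lower means, and their sum was 57094 to 61587 CPM in R193H hearts, against 63349 to 67400 CPM in WT hearts. Red cell markers summed to 496.0, 650.5 and 583.1 CPM in R193H hearts, against 3137, 274.3 and 3013 CPM in WT hearts, with WT heart 2 the lowest of all. All 10 endothelial markers had higher means, with a median log2 fold change of 0.11, the same as the members' to 2 decimals. Their sum was 2252, 2337 and 2278 CPM in R193H hearts, against 2022, 1829 and 2501 CPM in WT hearts, with WT heart 3 the highest. R193H heart 2, which had the highest member median and share, stood apart in fibroblast and epicardial markers. Of 10 fibroblast markers, 9 had higher means, and their sum was 3174, 4875 and 3251 CPM in R193H hearts, against 3286, 4137 and 3384 CPM in WT hearts. All 10 lay above their WT mean in R193H heart 2, and 1 did so in each of the other R193H hearts. Of 6 epicardial markers, 5 had higher means, with a median log2 fold change of 1.69 and a sum of 13.1, 65.6 and 36.04 CPM in R193H hearts, against 12.9, 19.5 and 25.4 CPM in WT hearts. No marker of these 6 lists was at 0 in all hearts. Without R193H heart 2, the members' median log2 fold change was 0.10. In whole tissue, fewer cells of a type and less RNA per cell cannot be told apart. The part of cell makeup, depth or mitochondrial share in the members' values was not tested.

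The members of smallest p were ordinary core proteins of the ribosome. Rpl12, which sits at the base of the stalk where elongation factors bind, had 6.03, 6.22 and 6.29 CPM in R193H hearts, against 4.19, 3.94 and 4.56 CPM in WT hearts. All R193H hearts were above all WT hearts, with a log2 fold change of 0.54 ± 0.15 (SE) and an edgeR adjusted p of 0.722. Its gene lies at chr2:32961559-32965345 on the plus strand, and over 634 aligned bases its transcript was 100% identical to Gm10275, an annotated copy. Gm10275 held 47.3, 52.5 and 51.7 CPM in R193H hearts, against 44.1, 45.1 and 42.8 CPM in WT hearts, several times the level counted for Rpl12 itself. With its copies added, Rpl12 had a log2 fold change of 0.24 ± 0.08 (SE).

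Rpl15, a large-subunit protein buried among ribosomal RNA, had 18.8, 17.98 and 17.5 CPM in R193H hearts, against 13.1, 16.0 and 14.68 CPM in WT hearts. The groups did not overlap, and the log2 fold change was 0.31 ± 0.11 (SE, edgeR adjusted p = 0.748). With its copies added, the level was 103.2, 92.9 and 84.5 CPM in R193H hearts, against 80.1, 100.2 and 80.7 CPM in WT hearts, the groups overlapped, and the log2 fold change was 0.10 ± 0.11 (SE). Rpl18, a further protein of the large subunit, had 130.8, 137.1 and 135.6 CPM in R193H hearts, against 120.6, 120.3 and 116.0 CPM in WT hearts. Copies added little to this gene, and its log2 fold change was 0.18 ± 0.07 either way (SE), with no overlap of the groups.

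Of the members of highest CPM, Rpsa, a small-subunit protein first described as a laminin receptor, had 426.3, 425.3 and 406.9 CPM in R193H hearts, against 374.3, 390.3 and 366.7 CPM in WT hearts. The groups did not overlap, and the log2 fold change was 0.15 ± 0.08 (SE, edgeR adjusted p = 0.867). Rps24, at 376.4 ± 23.6 CPM in R193H hearts and 355.9 ± 12.6 CPM in WT hearts (SD, n = 3 each), overlapped, as did Rpl7, at 268.1 ± 9.40 CPM in R193H hearts and 260.5 ± 1.81 CPM in WT hearts. Rps15, near the decoding site of the small subunit, had 249.4 ± 2.77 CPM in R193H hearts and 232.5 ± 10.2 CPM in WT hearts (SD, n = 3 each), without overlap. Rps13 and Rps29, with mean levels of 0.61 and 0.64 CPM, were among the lowest members tested. Their log2 fold changes were 0.51 ± 0.40 and 0.52 ± 0.43 (SE), with overlap. With copies these were 0.05 ± 0.09 and -0.01 ± 0.15 (SE).

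The 7 members with lower means in R193H hearts were Rpl27a, Rpl3l, Rps27a, Rps27, Rps7, Rplp2 and Rpl5, and in each the groups overlapped. Rpl27a had only 0.764, 0.824 and 0.838 CPM in R193H hearts, against 1.21, 0.727 and 0.952 CPM in WT hearts, a log2 fold change of -0.24 ± 0.35 (SE). Rps7 had 83.5, 101.2 and 80.0 CPM in R193H hearts, against 88.8, 87.1 and 93.5 CPM in WT hearts, a log2 fold change of -0.03 ± 0.10 (SE). With copies added, Rps7 stood at 157.8, 146.5 and 152.6 CPM in R193H hearts, against 132.8, 128.2 and 135.9 CPM in WT hearts, all R193H hearts above all WT hearts. Its log2 fold change was then 0.20 ± 0.07 (SE, edgeR adjusted p = 0.781). The sign for Rpl27a also turned with copies, at 0.23 ± 0.11 (SE).

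**Figure D2:**
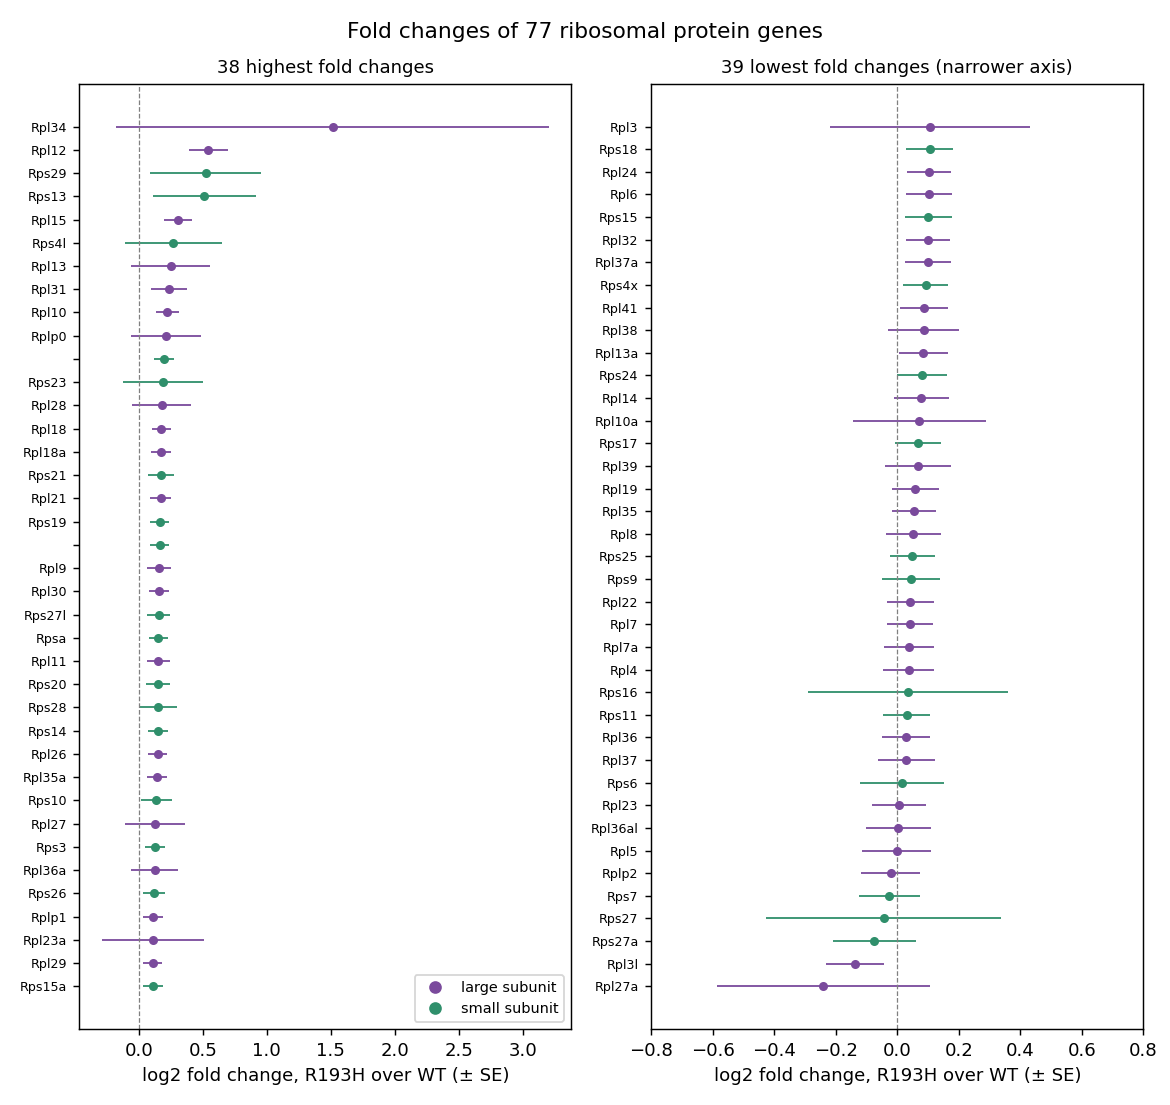
log2 fold change (R193H over WT) of each of the 77 tested genes with its standard error (bars) from edgeR, large-subunit genes in purple and small-subunit genes in green, the 38 highest on the left and the 39 lowest on the right on a narrower axis. Most points lie just right of 0, and Rpl34 (1.51 ± 1.69) has by far the widest bar.

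Among functional groups of the family, the stalk recruits elongation factors and is made of Rplp0, Rplp1 and Rplp2. Rplp1 had 113.9 ± 6.14 CPM in R193H hearts and 105.2 ± 3.91 CPM in WT hearts (SD, n = 3 each), without overlap, and Rplp2 had 83.2 ± 3.33 CPM in R193H hearts and 84.5 ± 9.84 CPM in WT hearts, with overlap. Rpl5 and Rpl11 enter the large subunit together with the smallest ribosomal RNA and, outside the ribosome, bind Mdm2, the ligase that degrades p53. Rpl5 had a log2 fold change of -0.0024 ± 0.11 and Rpl11 one of 0.15 ± 0.09 (SE), and both overlapped.

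The X chromosome carries Rps4x, Rpl10, Rpl39 and Rpl36a. All 4 had higher means, with a median log2 fold change of 0.11, and Rps4x and Rpl10 did not overlap. Rpl10, among the last proteins to join the large subunit, had 64.6, 78.3 and 71.6 CPM in R193H hearts, against 62.0, 64.6 and 56.9 CPM in WT hearts, with R193H heart 1 just above WT heart 2. With copies, which share 92.1% of its windows, Rpl10 had 78.0, 94.3 and 85.3 CPM in R193H hearts, against 75.7, 79.4 and 70.2 CPM in WT hearts. R193H heart 1 then lay below WT heart 2, and the unadjusted p from edgeR was 0.0603, against 0.0361 alone. Of 10 genes whose human counterparts are mutated in Diamond-Blackfan anaemia, a failure of red cell formation, 8 had higher means and 3 did not overlap, with a median log2 fold change of 0.13. Of these, Rps19, the gene most often mutated in the disease, had 63.4, 67.1 and 66.0 CPM in R193H hearts, against 58.2, 61.8 and 55.5 CPM in WT hearts, without overlap. Rpl26 had 193.5 ± 0.810 CPM in R193H hearts and 174.7 ± 9.50 CPM in WT hearts, and Rpl35a had 33.6 ± 0.186 CPM in R193H hearts and 30.4 ± 1.47 CPM in WT hearts (SD, n = 3 each), both without overlap. Of the genes of the tunnel exit, where new proteins leave the large subunit, all 7 tested had higher means, with a median log2 fold change of 0.07. None of the genes in these groups was called. Non-overlap with R193H higher held for 29 of all 77 tested members and for 6.02% of all genes.

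The muscle paralog Rpl3l had more counts than Rpl3 in every heart, with or without the copies of Rpl3. Rpl3l (chr17:24727820-24736143, plus strand) had 206.6, 194.6 and 188.1 CPM in R193H hearts, against 205.6, 242.9 and 199.5 CPM in WT hearts. The groups overlapped, WT heart 2 being highest and R193H heart 3 lowest, and the log2 fold change was -0.14 ± 0.09 (SE, edgeR adjusted p = 0.900). Rpl3 (chr15:80077791-80091868, minus strand), which lies close to the site of peptide bond formation, had 4.90, 2.61 and 2.75 CPM in R193H hearts, against 2.55, 2.42 and 4.46 CPM in WT hearts. The log2 fold change of Rpl3 was 0.11 ± 0.32 (SE, edgeR adjusted p = 0.979), and the groups overlapped.

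The Rpl3 transcript matched the copy Rpl3-ps1 at 99.8% of 1210 aligned bases, whereas it matched Rpl3l at 74.4% of 1186. Rpl3-ps1 had 38.4, 62.2 and 54.997 CPM in R193H hearts, against 53.1, 51.7 and 30.2 CPM in WT hearts, far above the level counted for Rpl3. In both groups the heart with the most Rpl3 had the least Rpl3-ps1, R193H heart 1 and WT heart 3. Rpl3l counts were 42.1, 74.6 and 68.5 times those of Rpl3 alone in R193H hearts, against 80.5, 100.2 and 44.8 times in WT hearts. Set against Rpl3 and its copies together, the ratios were 4.66, 2.95 and 3.21 in R193H hearts and 3.63, 4.38 and 5.70 in WT hearts. The log2 ratio to Rpl3 alone differed by -0.25 between R193H and WT hearts and the ratio with copies by -0.35. Exact two-sided permutation tests over the 20 relabelings gave p = 0.5 and p = 0.3, where the smallest possible is 0.1. Without R193H heart 1, the difference to Rpl3 alone was 0.0056. The transcripts are of similar length, 1375 bases in Rpl3l and 1351 in Rpl3, and per kilobase the level of Rpl3l was 149.97 CPM and that of Rpl3 with copies 38.99 CPM, each a mean of 6 hearts.

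**Figure D3:**
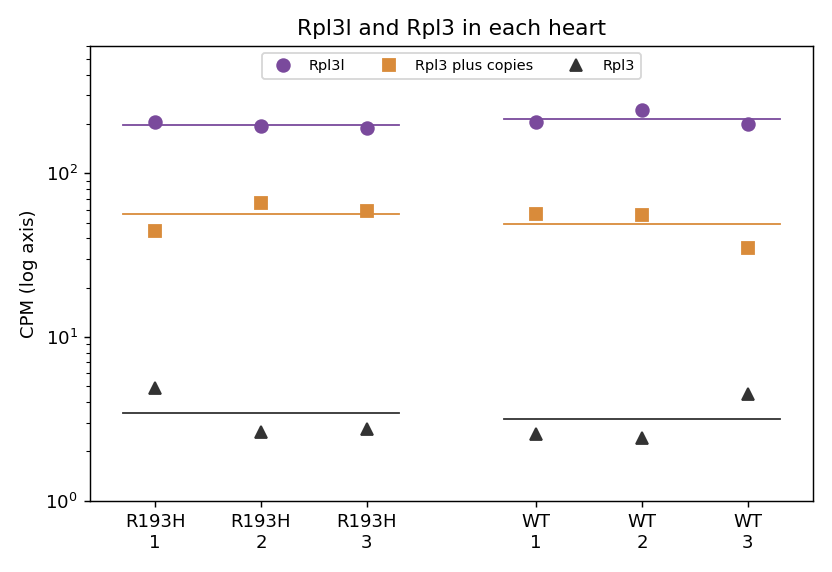
CPM on a log axis of Rpl3l (purple circles), of Rpl3 with its copies (orange squares) and of Rpl3 alone (black triangles) in each R193H heart and each WT heart, with lines at the group means. Rpl3l lies above Rpl3 in every heart, at 188.1 to 206.6 CPM in R193H hearts and 199.5 to 242.9 CPM in WT hearts.

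The pair Eef1a2 and Eef1a1, the muscle and general forms of the elongation factor that brings aminoacyl-tRNA to the ribosome, was set beside it. Eef1a2 had 927.7, 1060 and 1060 CPM in R193H hearts, against 1110, 1287 and 1109 CPM in WT hearts. Eef1a1 had 960.3, 1148 and 951.7 CPM in R193H hearts, against 907.9, 927.2 and 871.2 CPM in WT hearts. The R193H hearts were all lower for Eef1a2 and all higher for Eef1a1, and neither gene was called (edgeR adjusted p = 0.866 and 0.882). The ratio of Eef1a2 to Eef1a1 was 0.966, 0.923 and 1.11 in R193H hearts, against 1.22, 1.39 and 1.27 in WT hearts, with no overlap. The log2 ratio differed by -0.37, and the exact two-sided permutation p was 0.1, the smallest that 3 hearts against 3 allow.

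The other paralogs were counted at lower levels or not at all. Rpl10l had 0 counts in all hearts, and Rpl39l had 5, 0 and 0 counts in R193H hearts and 0, 1 and 0 counts in WT hearts, so neither was tested. Rpl36al, which codes for nearly the same protein as Rpl36a, had 41.5, 33.6 and 43.1 CPM in R193H hearts, against 37.7, 37.9 and 42.2 CPM in WT hearts. Rpl36a itself, at 6.52, 4.67 and 4.66 CPM in R193H hearts and 4.90, 4.42 and 5.21 CPM in WT hearts, had 10.5 CPM per kilobase of transcript, against 74.8 for Rpl36al, as means of 6 hearts. With copies, the closest of which shares 62.7% of the windows of Rpl36a, the levels per kilobase were 30.3 CPM for Rpl36a and 75.1 CPM for Rpl36al. Rps27l, a p53 target in other settings, had 22.8, 22.6 and 22.7 CPM in R193H hearts, against 21.3, 19.2 and 20.7 CPM in WT hearts, without overlap (log2 fold change 0.16 ± 0.09, SE). Rps4l, with 13.4, 20.9 and 8.43 CPM in R193H hearts and 7.95, 13.9 and 13.4 CPM in WT hearts, overlapped. Outside the rule, Rpl7l1 had a mean of 39.1 ± 0.792 CPM in R193H hearts and 37.5 ± 1.15 CPM in WT hearts, Rpl22l1 had 4.42 ± 0.879 CPM in R193H hearts and 4.71 ± 0.378 CPM in WT hearts, and Rps27rt had 3.17 ± 0.325 CPM in R193H hearts and 2.73 ± 0.375 CPM in WT hearts (SD, n = 3 each). The groups overlapped in all 3 of these genes. GENCODE M21 annotates Rps4l as a transcribed processed pseudogene.

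Counts of several members ran opposite to those of their copies from heart to heart. The 705 pseudogene or retrogene symbols that shared a window with 1 of 74 members, each assigned to the member it shared most with, held 20.6% to 21.4% of the summed counts of members and copies in R193H hearts and 21.4% to 23.2% in WT hearts. Rpl34, a large-subunit protein, had 1.80, 32.9 and 59.4 CPM in R193H hearts, against 30.3, 2.06 and 1.75 CPM in WT hearts. It was near its lowest in R193H heart 1 and WT hearts 2 and 3, the groups overlapped, and its log2 fold change of 1.51 had a standard error of 1.69. Rpl34-ps1, which differs from it by the substitutions given above, had 69.5, 38.4 and 8.71 CPM in R193H hearts, against 35.6, 63.3 and 65.3 CPM in WT hearts. Within each group the hearts ran in the reverse order to that of Rpl34. With copies, Rpl34 stood at 72.1, 71.8 and 68.2 CPM in R193H hearts, against 66.4, 65.9 and 67.9 CPM in WT hearts. The coefficient of variation over hearts (within groups) was 110% alone and 2.47% with copies, and the log2 fold change was 0.08 ± 0.07 with copies (SE).

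Rplp0, the scaffold of the stalk and the member of highest CPM, had 579.7, 296.1 and 422.1 CPM in R193H hearts, against 418.2, 288.9 and 412.8 CPM in WT hearts. The copy Gm8730 had 2.11, 194.7 and 87.4 CPM in R193H hearts, against 85.6, 193.9 and 87.5 CPM in WT hearts. Gm8730 was thus nearly absent in R193H heart 1, at its highest in R193H heart 2 and WT heart 2, and between these levels in the other hearts. Gm9625 had 0.540, 27.95 and 11.8 CPM in R193H hearts, against 11.2, 25.6 and 12.3 CPM in WT hearts, with the same hearts high and low. Gm6278 did likewise, at 0.0899, 9.74 and 4.89 CPM in R193H hearts, against 4.90, 9.27 and 4.66 CPM in WT hearts. Summed with its copies, Rplp0 stood at 582.7, 529.1 and 526.7 CPM in R193H hearts, against 520.2, 518.5 and 517.0 CPM in WT hearts. The coefficient of variation was 28.04% alone and 4.21% with copies. Without R193H heart 1, the log2 fold change of Rplp0 by itself was -0.057, against 0.21 with all hearts. What sets these levels apart was not tested.

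Rps3a1, the gene of a core small-subunit protein whose symbol lies outside the rule, had 91.6, 89.3 and 87.1 CPM in R193H hearts, against 82.7, 40.8 and 43.2 CPM in WT hearts. The groups did not overlap, and the log2 fold change was 0.69 ± 0.29 (SE, edgeR adjusted p = 0.863). Rps3a2, 99.5% identical over 792 bases, had 77.2, 76.5 and 75.9 CPM in R193H hearts, against 65.4, 126.4 and 138.3 CPM in WT hearts. Rps3a3 had 4.59, 4.53 and 4.14 CPM in R193H hearts, against 4.19, 45.5 and 43.6 CPM in WT hearts, so WT hearts 2 and 3 stood apart from WT heart 1 in all 3 genes. With copies, Rps3a1 had a log2 fold change of -0.16 ± 0.12 (SE) and overlapping groups. Without WT heart 1, Rps3a1 by itself passed the edgeR test, at a log2 fold change of 1.09. Fau, a core gene outside the rule that encodes a ubiquitin-like protein fused to a ribosomal protein, had 4.55 ± 0.579 CPM in R193H hearts and 3.74 ± 0.457 CPM in WT hearts (SD, n = 3 each).

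**Figure D4:**
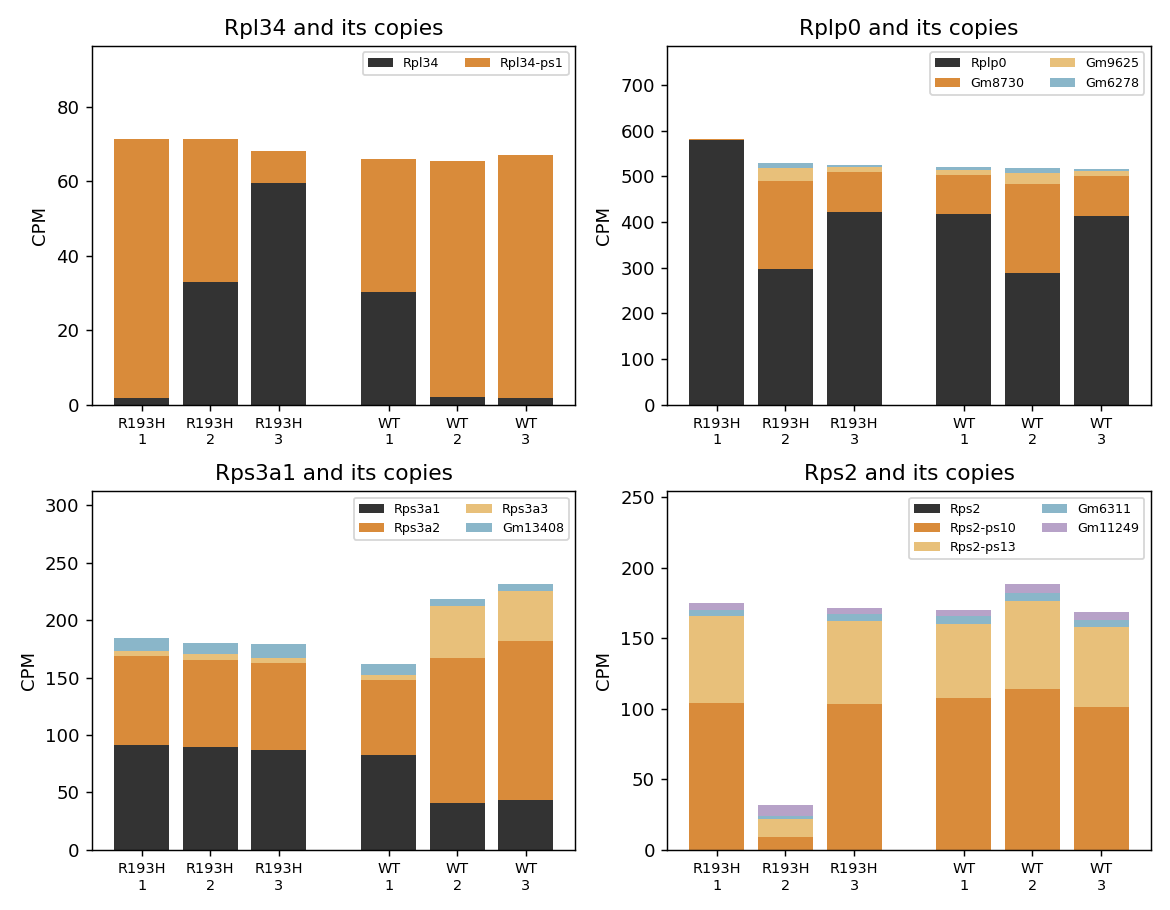
Stacked CPM of Rpl34, Rplp0, Rps3a1 and Rps2 (dark) and their most abundant copies (colours) in each R193H heart (left) and each WT heart (right). The split between gene and copies varied among hearts more than the sum for Rpl34 and Rplp0, while the Rps2 sum was low in R193H heart 2 and Rps2 itself was at 0.

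Of the 5 members that were not tested, 3 encode core proteins of the ribosome and had copies with many counts. Rps2 had 0 counts in all hearts, and with copies its level was 181.8, 38.8 and 176.9 CPM in R193H hearts, against 176.2, 194.3 and 175.0 CPM in WT hearts. R193H heart 2 stood apart, where Rps2-ps10 had 9.01 CPM, beside 104.0 and 103.2 CPM in the other R193H hearts and 101.4 to 113.9 CPM in the WT hearts. Rps12 had 0.405, 0.549 and 0.466 CPM in R193H hearts and 0.355, 0.182 and 0.451 CPM in WT hearts, while Rps12-ps3 alone had 39.1, 38.2 and 37.9 CPM in R193H hearts, against 36.8, 36.5 and 34.0 CPM in WT hearts. Rpl17 had 0, 2 and 6 counts in R193H hearts and 0, 0 and 2 counts in WT hearts, and 97.7 ± 2.30 CPM in R193H hearts and 89.5 ± 1.92 CPM in WT hearts with copies (SD, n = 3 each).

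With each member summed with its copies, 80 members could be tested and 0 were called by edgeR, beside 0.00702% of all genes. The lowest adjusted p was 0.729. At an unadjusted p under 0.05, Rpl12, Rps7 and Rpl18 had higher means and 0 members lower means, beside 3.17% of all genes higher. A higher mean was found in 73 members, beside 49.8% of all genes, and 32 members did not overlap with R193H higher, beside 6% of all genes, with 0 lying wholly below WT, beside 5.82%. Of those 32, 25 were among the 29 that did not overlap alone, and Rpl10, Rpl15, Rpl21 and Rpl31 overlapped once copies were added. A higher mean was found in 68 members both alone and with copies. The median log2 fold change was 0.10. The coefficient of variation within groups was under 10% in 69 of 77 members with copies and in 58 without.

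Levels across the family were compared per kilobase of transcript, for the 76 tested members with a GENCODE length. The mean level per kilobase over 6 hearts ranged from 0.764 CPM in Rpl27a to 482 CPM in Rps15, with a median of 82.8 CPM, and 11 genes lay under 5 CPM. With copies added, the median was 118 CPM, the range was 1.49 to 482 CPM, and 1 gene, Rps23, lay under 5 CPM. The standard deviation of the log2 level over the genes was 2.48 alone and 1.67 with copies. Copies raised the level at least 1.5-fold in 30 of the 80 members tested with copies, which include Rps2, Rps12 and Rpl17, not tested alone. Across the 76 genes, Spearman's rho between the percent of shared windows and the level was -0.18 alone and -0.05 with copies, a description over genes that share hearts and libraries. The chosen transcripts of Rps15a and Rps20 are long for their proteins, and their levels per kilobase depend on that choice.

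**Figure D5:**
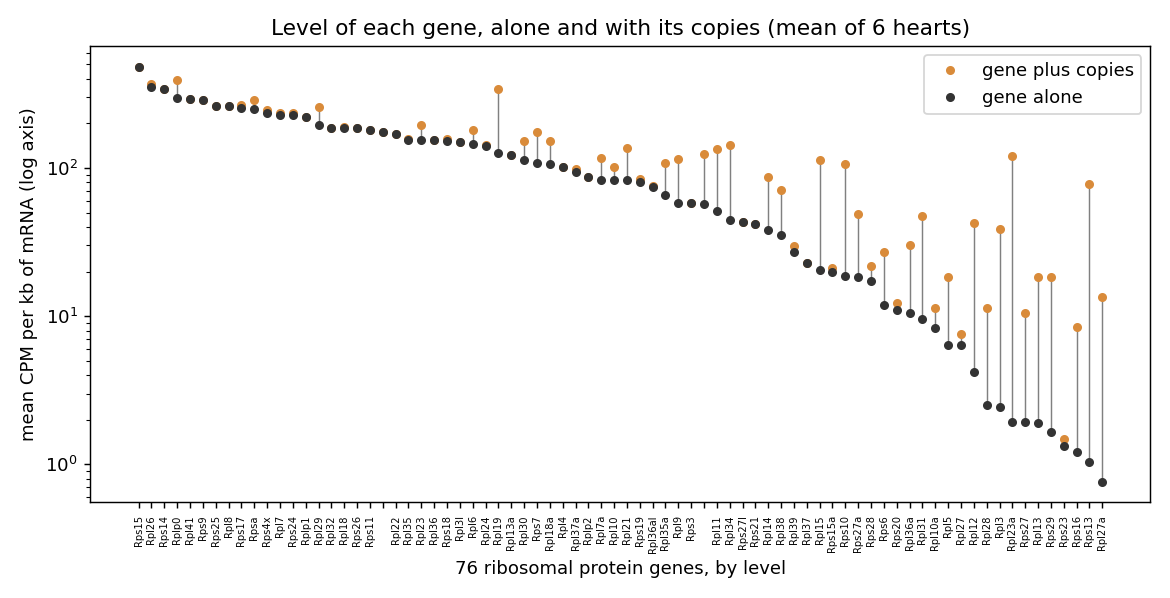
Mean CPM per kilobase of transcript over the 6 hearts on a log axis for 76 ribosomal protein genes, ordered by level, alone (black) and with copies (orange), with a line joining each pair. Levels run from 0.764 to 482 CPM per kilobase alone, and the longest lines are among the genes at the low end. Not all of these moved far, as Rps23 had 1.32 CPM per kilobase alone and 1.49 with copies. The gene that shares most with Rps23, Gm5148, at 42.6% of its windows, was not among the copies added.

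Genes that act on the family were described from listed groups, and none of them was called. Of 17 tested translation factors and related proteins whose messenger RNAs also carry a TOP motif, 10 had higher and 7 lower means, with a median log2 fold change of 0.02. In 3 of the 17, Eef1a1, Eef1b2 and Tpt1, all R193H hearts lay above all WT hearts, and in 2, Naca and Eif4b, all lay below. Of all genes tested, 6.02% lay wholly above WT and 5.8% wholly below. Eef1b2, a subunit of the exchange factor of Eef1a1, had 114.4 ± 2.67 CPM in R193H hearts and 108.4 ± 1.93 CPM in WT hearts, and Tpt1 had 202.6 ± 3.73 CPM in R193H hearts and 194.9 ± 3.92 CPM in WT hearts (SD, n = 3 each). The log2 fold changes were 0.18 ± 0.09 for Eef1a1, 0.08 ± 0.07 for Eef1b2 and 0.06 ± 0.07 for Tpt1 (SE). Naca, a chaperone subunit that binds new proteins at the ribosome, had 465.2, 442.8 and 517.6 CPM in R193H hearts, against 548.6, 582.7 and 529.9 CPM in WT hearts. Eif4b, a helper of the initiation helicase, had 207.6, 212.8 and 226.4 CPM in R193H hearts, against 246.6, 258.9 and 231.3 CPM in WT hearts. The log2 fold changes were -0.22 ± 0.09 for Naca and -0.19 ± 0.08 for Eif4b (SE, edgeR adjusted p = 0.816 and 0.851).

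Of 16 genes of the mTOR and Larp1 pathway, 3 had higher and 13 lower means, with a median log2 fold change of -0.08. Tsc2, an inhibitor of mTOR complex 1, had 88.7, 97.9 and 93.0 CPM in R193H hearts, against 107.8, 114.9 and 102.0 CPM in WT hearts, a log2 fold change of -0.22 ± 0.08 (SE, edgeR adjusted p = 0.781). Mtor had 4.36, 6.13 and 5.26 CPM in R193H hearts, against 6.24, 6.49 and 6.16 CPM in WT hearts. Both genes were lower in all R193H hearts than in any WT heart. This held for 3 of the 16, beside 5.8% of all genes, and 0 lay wholly above WT. The list holds Mtor as well as inhibitors such as Tsc2, so its median gives no direction for the pathway.

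Of 39 tested ribosome assembly factors, 24 had higher and 15 lower means, with a median log2 fold change of 0.03. The smallest p was that of Nip7, at 12.6 ± 0.727 CPM in R193H hearts and 10.5 ± 1.41 CPM in WT hearts (SD, n = 3 each). Of 15 tested genes of RNA polymerase I and its factors, which transcribe ribosomal RNA, 7 had higher and 8 lower means, with a median log2 fold change of -0.02. Myc, a transcription factor that acts on ribosome production, had 5.26, 5.40 and 5.22 CPM in R193H hearts, against 3.05, 3.21 and 4.31 CPM in WT hearts. All R193H hearts were above all WT hearts, with a log2 fold change of 0.58 ± 0.18 (SE, edgeR adjusted p = 0.722). Rrn3, which brings the polymerase to its promoter, had 44.2, 43.4 and 47.4 CPM in R193H hearts, against 50.4, 54.2 and 48.0 CPM in WT hearts, a log2 fold change of -0.18 ± 0.08 (SE, edgeR adjusted p = 0.863).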

How the data were processed

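Each of 6 hearts gave 1 RNA library. The authors deposited raw counts, whole numbers for each gene symbol and heart, in a single table. HISAT2 2.0.4 and GRCm38 are named as aligner and genome build by the submitters' processing notes. What counted the reads, how reads with several placements were handled, and the strand setting and annotation are not known from the sources.

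Columns were matched to hearts by the sample titles, and replicate numbers are names only. In R 4.3.3, edgeR 4.0.16 filtered with filterByExpr, scaled by trimmed mean of M values (TMM) and fitted the robust quasi-likelihood test without covariates, with Benjamini-Hochberg adjustment over 14370 genes at 0.05. The biological coefficient of variation was 15.8%. CPM uses the scaled totals. No pair of hearts was alike within sampling noise.

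Members, lists and tests were chosen with earlier results of these data known. Named were Rpl3l and Rpl3, the members of smallest p, of extreme level or of extreme fold change, fixed small lists in full and up to 4 genes of each other list by p. Copies, Rps2, Rps12, Rpl17, Rpl21, Eef1b2 and Tpt1 were named after their values were seen. A few genes are not reported here and carry no label in the plots. Copies were found by shared windows of 50 bases in GENCODE M21 transcripts. Only pseudogenes and Rpl or Rps symbols with a row of counts could be added as copies. For some members the gene sharing most was therefore left out, and a small change with copies does not show that few reads went elsewhere.

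Alternatives were other scalings and filters, DESeq2 1.42.0, limma-voom (limma 3.58.1), a non-robust fit and each heart left out. Sums with copies and a loess correction for length and GC content (span 0.5) were added after seeing the data. The edgeR fit was tested on simulated data.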

Additional observations from a re-analysis of the deposited data

How the results depend on the processing

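No paired analysis was possible because replicate numbers are only names in order of listing and pair no hearts. No member was called under any alternative. The count of genes called over the whole table was 1, against 0 without mitochondrially encoded genes, 38 without a filter on low counts, 42 with DESeq2 and 3 to 21 with a heart left out. The members' median log2 fold change of 0.11 was 0.23 with library totals, where the median of all genes was 0.13. It was 0.068 after the correction for length and GC content, with 62 of 77 members higher, and 0.082 to 0.12 with a heart left out. The member share of all counts differed by 0.0866 to 0.124 percentage points between R193H and WT hearts with a heart left out. That share, like library totals, carries no further scaling. The log2 ratio of Rpl3l to Rpl3 ran from -0.58 to 0.0056, changing sign without R193H heart 1, and that of Eef1a2 to Eef1a1 from -0.45 to -0.32.

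Single genes changed sign, and not all were near 0 in the main edgeR fit. There, Rps3a1 was at 0.69, Rps29 at 0.52 and Rpl27a at -0.24. With library totals, log2 fold changes were 0.058 for Rps27a, 0.11 for Rps7 and Rplp2, 0.074 for Rps27, 0.035 for Rpl22l1 and 0.12 for Rpl5. Rpl5 was at 0.0014 with upper quartile scaling, and Rpl36al at -0.0054 with limma-voom. With copies, Rpl27a was at 0.23, Rps7 at 0.20, Rps29 at -0.014, Rps27 at 0.18 and Rps3a1 at -0.16. With a heart left out, the range was -0.25 to 0.46 for Rpl3, -0.17 to 0.024 for Rps27a, -0.13 to 0.048 for Rps7, -0.12 to 0.042 for Rplp2, -0.057 to 0.43 for Rplp0 and -0.17 to 0.12 for Rps27. It was -0.058 to 0.11 for Rpl36al, -0.11 to 0.55 for Rps4l, -0.23 to 0.044 for Rpl22l1, -0.048 to 0.058 for Rpl5, -0.012 to 0.14 for Rpl39 and -0.057 to 0.21 for Rpl36a. None of the genes given by such a range was called in any setting. Rps3a1 was called without WT heart 1, at 1.09. The cause was not tested.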
